A study of Rattus norvegicus with 10 samples.

Results

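The distal chromosome ends are the last 2 Mb of captured sequence on 19 rat autosomes, chromosomes 1 to 20 without chromosome 12. A region was taken as distal when its start lay within 2 Mb of the largest end that the count matrix holds for its chromosome. The choice used position alone, with no tag count. It gave 8011 distal regions of 716492 regions in all (1.12%), between 147 and 847 per chromosome. The rest of the same chromosomes held 683675 regions, and the first 2 Mb counted from the smallest start of each chromosome held 6554, which are called low-coordinate ends here. The largest end in the matrix is the end of the last captured region and not the telomere itself.

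Methylation of cytosine at CpG sites is the main DNA modification of mammalian genomes, and in brain tissue most CpG sites outside CpG islands carry it. Methyl-capture sequencing uses a methyl-CpG binding protein to pull down methylated fragments, so the tags of a region reflect how many methylated CpG sites it holds as well as how often each site is methylated. Sequence next to telomeres is unusual in many mammals in its CpG content and repeats, and assemblies are often incomplete there. Rat chromosome sequences are numbered from the short arm, and in many rat autosomes the centromere lies close to the low-coordinate end.

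Tissue came from adult male Sprague-Dawley rats, an outbred strain, 3 months after surgery. Of the 10 rats, 5 had lateral fluid percussion of the left parietal cortex, a model of traumatic brain injury (TBI) that can lead to epilepsy, and 5 were sham-operated controls that had the same anesthesia and surgery without the pressure pulse. Each rat gave 1 library from tissue of the left hippocampus with the CA3 field and dentate gyrus, a mixture of cell types in which a change of methylation and a change of cell composition cannot be told apart. The labels name the tissue as dorsal hippocampus and do not say which rats had seizures.

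Libraries held 13597924 to 21672940 tags, of which 120081 to 198471 lay in distal regions. The library of sham rat 5 stood apart from the other 9. The 1% of tested regions with the most tags took 7.26% of its tags in tested regions, and 8.90% to 10.9% of those of each other rat. Of the distal regions, 0.786% were empty in this library and 9.45% to 20.8% in each of the others. Results that rest on it are given with and without it.

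Captured regions were sparser and shorter at the distal ends than in the rest of the same chromosomes. The distal 38 Mb held 210.8 regions per Mb, compared with 276.5 per Mb in the rest of these chromosomes. Distal regions covered 13.9% of the distal sequence, compared with 19.5% elsewhere. The median length was 540 bp at the distal ends and 573 bp in the rest. Regions under 400 bp made up 23.6% of distal regions and 20.8% of the rest, whereas regions of 1 kb or more made up 13.2% and 16.7%. Of the distal regions, 37 reached 3 kb (0.462%, compared with 0.478% in the rest). Low-coordinate ends were sparser still, with 172.5 regions per Mb and a median length of 524.5 bp. Number and length of regions belong to the matrix as a whole and have no replicates, so they were not tested.

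The ends differed widely from each other. Of the 19 ends, 5 were denser than the rest of their chromosome (chromosomes 1, 3, 4, 5 and 10) and 14 were sparser. Density lay between 73.5 regions per Mb on chromosome 16 and 423.5 per Mb on chromosome 10, with a median of 181.5, whereas the rest of the same chromosomes lay between 232.6 and 351.5. The sparsest ends relative to their own chromosome were those of chromosome 9 (0.26 times the density of the rest), chromosome 16 (0.26 times) and chromosome 18 (0.27 times). The end of chromosome 5 was the densest relative to its chromosome, at 1.51 times the rest, and its regions covered 33.3% of the last 2 Mb compared with 18.0% of the rest. Regions were longer than in the rest of the chromosome at 4 ends (chromosomes 3, 4, 5 and 10) and shorter at 15. Median lengths ran from 430 bp on chromosome 18 to 659.5 bp on chromosome 5. The longest stretch without a region was 227.1 kb, on chromosome 2, and that of the median end was 71.8 kb.

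**Figure D1:**
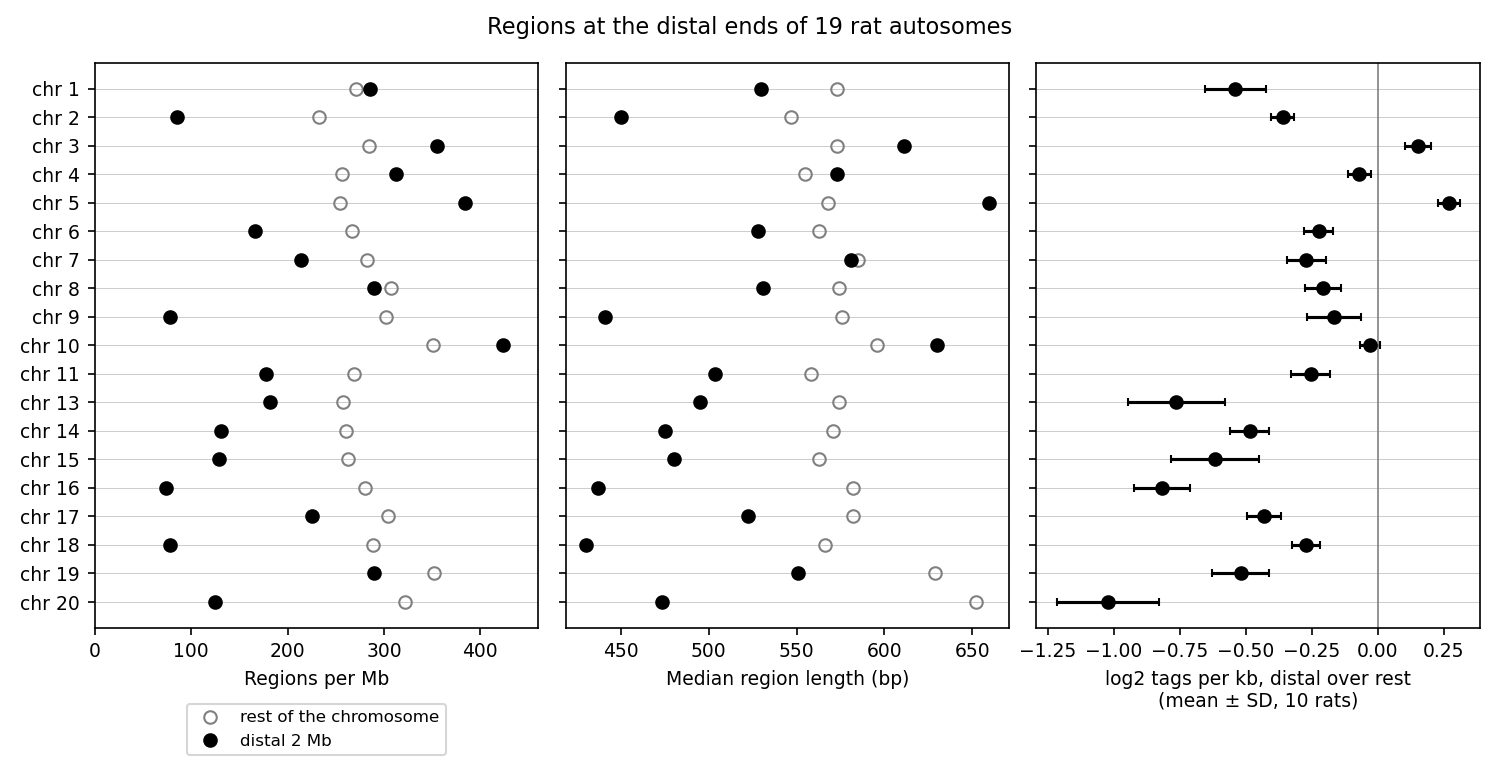
Regions per Mb, median region length in bp, and the log2 ratio of tags per kb of region, distal over rest, for each of the 19 chromosomes. Filled points are the distal 2 Mb, open points the rest of the chromosome, and the right panel gives the mean and SD over 10 rats. The ends of chromosomes 3 and 5 lie above 0 in the right panel and the other 17 have means below it.

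To ask whether distal regions also took fewer tags for their length, tags were summed over regions and divided by their summed length in each rat, and the distal value was set against the rest within the same library, which needs no scaling for depth. The distal regions had fewer tags per kb than the rest in 10 of 10 rats. In sham rats 1 to 5 the log2 ratios of distal to rest were -0.22, -0.17, -0.21, -0.20 and -0.071, and in TBI rats 1 to 5 they were -0.19, -0.20, -0.18, -0.14 and -0.14. Sham rat 5 was the nearest to 0, and the values of the groups overlapped. The mean log2 ratio was -0.17 ± 0.044 (SD, n = 10), which is 0.888 times the level of the rest (exact sign-flip permutation test over rats, two-sided, p = 0.00195, the smallest it can give). Without sham rat 5 it was -0.18 ± 0.028 (SD, n = 9, exact p = 0.00391). When each chromosome was left out in turn, the mean lay between -0.25 and -0.15, below 0 in every rat each time. All rats share the same list of regions, so tests over rats, here and below, ask whether the libraries agree. They cannot decide whether chromosome ends as a class differ from other sequence.

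The size of this difference depended on weak regions and on the width of the window. Among regions at or above the 50th percentile of the tag sum the mean log2 ratio was -0.061 (exact sign-flip permutation test, p = 0.00195). Among regions with at least 10 tags in every rat it was -0.020, below 0 in 7 of 10 rats, which no longer passed the threshold (exact permutation p = 0.0527). This loss rested on sham rat 5. Without it the mean among those regions was -0.023, below 0 in 7 of 9 rats, and passed the threshold of 0.05 (exact permutation p = 0.0391). With the last 5 Mb in place of the last 2 Mb the direction turned, to 0.20 (exact permutation p = 0.00195).

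The profile along the chromosomes shows where this turn lies. In steps of 0.5 Mb from the largest end, density was 154.8, 176.9, 225.2 and 286.3 regions per Mb inside the last 2 Mb and between 301.1 and 406.5 per Mb from 2 to 10 Mb. Median length ran from 494 bp in the last 0.5 Mb to 584 bp in the step next to the 2 Mb limit, and was between 626 and 726 bp further in. The log2 ratio of tags per kb to the rest of the chromosomes was -0.22, -0.23, -0.23 and -0.088 in the 4 distal steps and between 0.18 and 0.39 in the 16 steps beyond. Both density and tags per kb were thus lower in the last 2 Mb than in the sequence just inside it. The step from 2 to 2.5 Mb held 1 region with 19.1% of its tags.

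**Figure D2:**
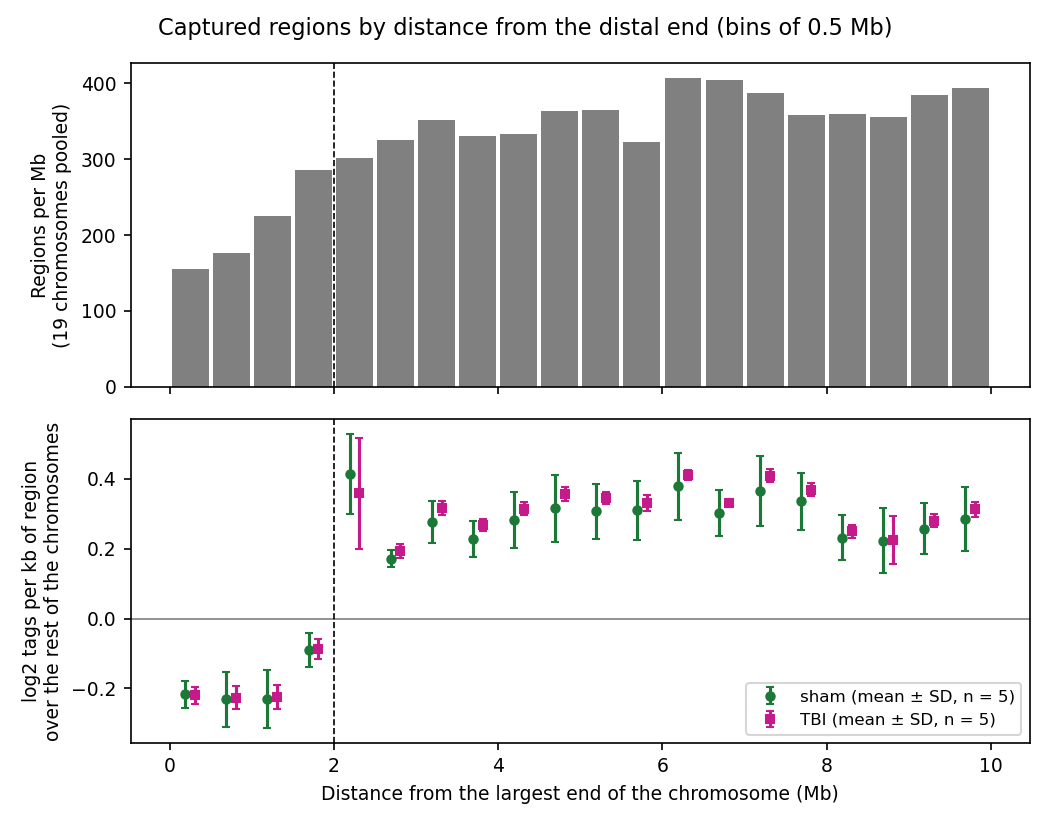
Regions per Mb over 19 chromosomes (upper panel) and the log2 ratio of tags per kb to the rest of the chromosomes (lower panel, mean ± SD, 5 sham and 5 TBI rats) in steps of 0.5 Mb from the largest end. The dashed line is the 2 Mb limit, and group means lie below 0 in the 4 steps distal to it and above 0 in the 16 steps beyond.

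Set against the next 8 Mb, the distal ends were lower in each rat by a wider margin. The log2 ratios of tags per kb were -0.56, -0.45, -0.53, -0.57 and -0.24 in sham rats 1 to 5 and -0.50, -0.54, -0.51, -0.46 and -0.46 in TBI rats 1 to 5. The mean was -0.48 ± 0.094 (SD, n = 10, exact sign-flip permutation test, two-sided, p = 0.00195), or 0.716 times the neighbouring level, and -0.51 ± 0.045 without sham rat 5. This comparison was chosen after seeing the data.

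Counting in each rat only regions with at least 1 tag, the distal ends held 166.9 to 209.2 such regions per Mb and the rest 230.9 to 275.2. The common list of regions already sets this difference, so no test of it over rats is given. Distal regions lacked tags more often than the regions of the rest, by 3.19 ± 1.14 percentage points (SD, n = 10), with a difference above 0 in 10 of 10 rats (exact permutation p = 0.00195). Sham rat 5 had the narrowest difference, 0.310 points, and without it the mean was 3.52 points. Over all rats, 29 distal regions held no tag in any library.

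The difference in tags per kb was also present among regions of like length. In regions under 400 bp the distal log2 ratio was -0.096 ± 0.030 and in those from 400 bp to 1 kb it was -0.16 ± 0.036 (SD, n = 10, below 0 in 10 of 10 rats in both classes). In regions from 1 to 3 kb it was -0.075 ± 0.042, and in the 37 regions of 3 kb or more it was -0.061 ± 0.058 (SD, n = 10, below 0 in 9 of 10 rats in both classes). Adjusted over the 4 classes, the exact sign-flip permutation tests gave p = 0.00391, 0.00391, 0.00521 and 0.00977. Of the 1% of autosomal regions with the most tags per kb, 75 were distal, which is 0.936% of distal regions, compared with 1.00% of the rest.

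Most ends had fewer tags per kb than the rest of their own chromosome in each rat, but not all did. The mean log2 ratio was below 0 at 17 ends and above 0 at 2. It was below 0 in all 10 rats at 15 ends, above 0 in all 10 rats at the ends of chromosomes 3 and 5, and of mixed sign between rats at the ends of chromosomes 4 and 10. Denser ends tended to be the ones with more tags per kb (Spearman's rho of 0.53 and Pearson's r of 0.54 between density and log2 ratio, across 19 ends that share the same 10 libraries, given as a description).

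The 5 ends denser than their chromosomes carried most of the distal tags. They held 44.0% of the distal regions, 50.1% of their length and 57.2% of their tags, with a median length of 602 bp. Their pooled log2 ratio of tags per kb was 0.041 ± 0.032 (SD, n = 10 rats), above 0 in 10 of 10 rats. Of these 5 ends, only those of chromosomes 3 (0.15) and 5 (0.27) had a mean above 0. Those of chromosomes 1, 4 and 10 had means of -0.54, -0.071 and -0.029. The 14 sparser ends had a median length of 506 bp and a log2 ratio of -0.41 ± 0.073, below 0 in 10 of 10 rats. The pooled ratio of -0.17 over all ends is thus a mean of unlike ends, and when each chromosome counted alike it was -0.35. The ends were divided on their density after it was seen, so no test is given.

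The end of chromosome 5, from 171095593 to 173095593 of the RN4 assembly, had the highest ratio of tags per kb to its own chromosome. Its log2 ratios were 0.26, 0.23, 0.25, 0.29 and 0.22 in sham rats 1 to 5 and 0.23, 0.26, 0.30, 0.35 and 0.29 in TBI rats 1 to 5. All 10 rats were above 0, with little spread, and the mean was 0.27 ± 0.041 (SD, n = 10). This end held 768 regions, of which 16 reached 3 kb, more than any other end.

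The end of chromosome 3, from 169060416 to 171060416, had a log2 ratio of 0.15 ± 0.049 (SD, n = 10), between 0.088 and 0.23 over the rats, and 8 regions of 3 kb or more. The end of chromosome 10, from 108717809 to 110717809, had the most regions (847) and a log2 ratio of -0.029 ± 0.038, above 0 in 2 of 10 rats. These 3 ends together held 43.9% of all distal tags in 29.0% of the distal regions.

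At the other extreme, the end of chromosome 20, from 53260183 to 55260183, had log2 ratios of -1.17, -0.90, -1.02, -1.31 and -0.58 in sham rats 1 to 5 and of -0.95, -1.10, -1.07, -1.05 and -1.07 in TBI rats 1 to 5. Sham rat 5 was the nearest to 0 and the mean was -1.02 ± 0.19 (SD, n = 10). The end of chromosome 16, from 88218507 to 90218507, had a mean of -0.82 ± 0.11, and that of chromosome 13, from 109148852 to 111148852, a mean of -0.76 ± 0.19 (SD, n = 10 each). These 3 ends held 250, 147 and 363 regions and no region of 3 kb or more. At all 3, sham rat 5 had the value nearest to 0.

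Individual distal regions reached high levels in spite of these averages. Among distal regions of at least 400 bp, chr5:172172032-172173083 had the most tags per kb, with 40.6 ± 6.03 tags per kb of region after scaling to 1000000 tags of the library (scaled tags per kb) (SD, n = 10). In sham rats 1 to 5 it had 46.4, 46.2, 44.7, 29.6 and 40.7 and in TBI rats 1 to 5 it had 39.5, 46.2, 38.2, 43.2 and 31.6 scaled tags per kb. The groups overlapped fully, and the distal regions as a whole had 1.67 to 1.87 scaled tags per kb. The region lay 923.6 kb from the largest end of its chromosome and held 576 to 977 tags per rat.

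The next 4 regions by this level had 12.1 to 14.8 scaled tags per kb. They were chr16:90024070-90024901 with 14.8 ± 4.82, chr19:57683496-57685007 with 14.5 ± 1.88, chr4:185976494-185978535 with 12.7 ± 3.70 and chr10:110075129-110076000 with 12.1 ± 4.14 (SD, n = 10 each). In the regions on chromosomes 4, 10 and 16 sham rat 5 had the lowest level of all rats (5.30, 6.12 and 6.61). The region on chromosome 16 lay at one of the ends with the lowest ratio, so a strong region can stand in a weak end.

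The longest distal regions clustered on chromosome 3. They were chr3:170369602-170377896 (8294 bp), chr3:169247194-169254469 (7275 bp), chr3:169234904-169241308 (6404 bp), chr8:127599694-127604911 (5217 bp) and chr3:169242302-169247111 (4809 bp). Of the 4 on chromosome 3, 3 stood side by side, 1813 to 1826 kb from the end. The 3 longest had 6.01 ± 0.849, 6.27 ± 1.12 and 6.08 ± 1.00 scaled tags per kb (SD, n = 10 each), and sham rat 5 was the lowest of all rats in each (3.95, 3.69 and 3.86). In the region on chromosome 8 the order was the other way, with 4.03 in sham rat 5 and between 0.643 and 1.496 in the other 9 rats.

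The distal ends were then compared with the low-coordinate ends of the same chromosomes. Pooled over chromosomes, the log2 ratio of distal to low-coordinate tags per kb was -0.42, -0.28, -0.41, -0.45 and -0.13 in sham rats 1 to 5 and -0.32, -0.36, -0.31, -0.26 and -0.24 in TBI rats 1 to 5. All 10 rats were below 0, with a mean of -0.32 ± 0.097 (SD, n = 10, exact sign-flip permutation test, two-sided, p = 0.00195). This direction rested on few strong regions of the low-coordinate ends. With the 1% of regions with the most tags per kb left out, the log2 ratio was 0.087, above 0 in 10 of 10 rats (exact permutation p = 0.00195), and the median tags per kb of a region, summed over the 10 rats, was 187.3 at the distal ends and 180.2 at the low-coordinate ends. The low-coordinate end had more tags per kb than the distal end on 10 of the 19 chromosomes.

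**Figure D3:**
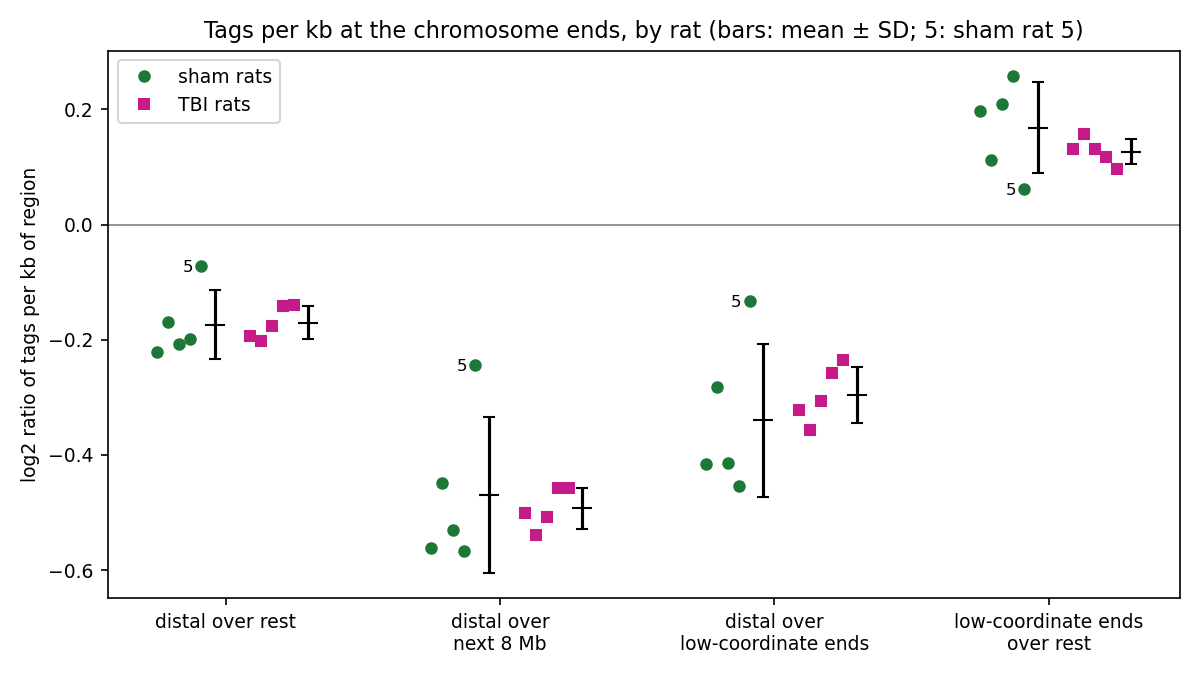
Log2 ratios of tags per kb of region in each rat, for the distal ends over the rest, over the next 8 Mb and over the low-coordinate ends, and for the low-coordinate ends over the rest. Circles are sham and squares TBI rats, bars give the mean ± SD of each group (n = 5), and the digit 5 marks sham rat 5, which is the nearest to 0 in all 4 ratios.

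To ask whether injury changed capture at the distal ends, TBI rats were compared with sham rats. Distal regions took 0.915% ± 0.0415 of the tags of sham rats and 0.915% ± 0.0179 of those of TBI rats (SD, n = 5 per group, exact permutation test, two-sided, p = 1). The log2 ratio of distal to rest had a mean of -0.17 ± 0.060 among sham rats and of -0.17 ± 0.029 among TBI rats, a difference of 0.0031 that was well inside the spread between rats (SD, n = 5 per group, exact permutation test, p = 0.944). Without sham rat 5 the sham mean was -0.20 ± 0.021 and the difference was 0.029 (exact permutation test, p = 0.159). The ratio of distal to low-coordinate ends differed by 0.044 (exact permutation p = 0.508), and by 0.096 without sham rat 5 (exact permutation p = 0.0635). None of 7 distal measures passed the threshold after adjustment, with all rats (smallest adjusted p = 1, exact permutation tests) or without sham rat 5 (smallest adjusted p = 0.389). The smallest p that 5 against 5 rats allow is 0.00794. For a single measure, even this p is above the threshold after adjustment over the 7 measures. With all rats, a single measure could thus not have passed by itself. The adjusted values therefore cannot decide whether a single measure differed.

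Single ends were compared in the same way. The log2 ratio was higher in TBI rats at 6 ends and lower at 13, with differences between -0.076 and 0.042, and the values of the groups overlapped at all 19. The smallest p was found at the end of chromosome 6, from 145630419 to 147630419. Its log2 ratios were -0.25, -0.14, -0.20, -0.22 and -0.12 in sham rats 1 to 5 and -0.24, -0.26, -0.28, -0.23 and -0.29 in TBI rats 1 to 5. The TBI rats were lower on average but overlapped with sham rat 1. The difference of -0.076 did not pass adjustment over the 19 ends (exact permutation test, p = 0.0238, adjusted p = 0.452). Even the smallest p that these splits allow is above 0.05 after adjustment over 19 ends. A single end could thus not have passed by itself, and the adjusted values cannot decide whether a single end differed. The count of higher and lower ends turned on sham rat 5, and without it 15 of 19 ends were higher in TBI rats, with none past the threshold after adjustment (smallest adjusted p = 0.377, exact permutation tests) and 2 with an unadjusted p under 0.05.

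A fit across 2 Mb windows of all placed chromosomes gave no call at the distal ends either. Of 1369 windows, 3 had an unadjusted p under 0.01 (0.219%), and none of the 19 distal windows did (edgeR's quasi-likelihood test). No distal window had an unadjusted p under 0.05, where 48 of all 1369 windows did, and none had an adjusted p under 0.05. The distal windows had log2 fold changes between -0.069 on chromosome 16 and 0.060 on chromosome 10, with standard errors between 0.026 and 0.097. On chromosome 10 the summed CPM (tags per 1000000 tags, with libraries scaled by trimmed means) was 1225 ± 31.9 for sham and 1277 ± 41.8 for TBI rats (SD, n = 5 per group, edgeR's quasi-likelihood test, adjusted p = 0.848). The DESeq2 Wald test also gave no distal window with an unadjusted p under 0.01. At an unadjusted p under 0.05 it gave 2 distal windows, and 78 of all 1369. By edgeR's test there were 2 without sham rat 5 (78 of all 1369) and 3 without sham rat 4 (125 of all 1369). In the other alternative fits this count of distal windows lay between 0 and 2.

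**Figure D4:**
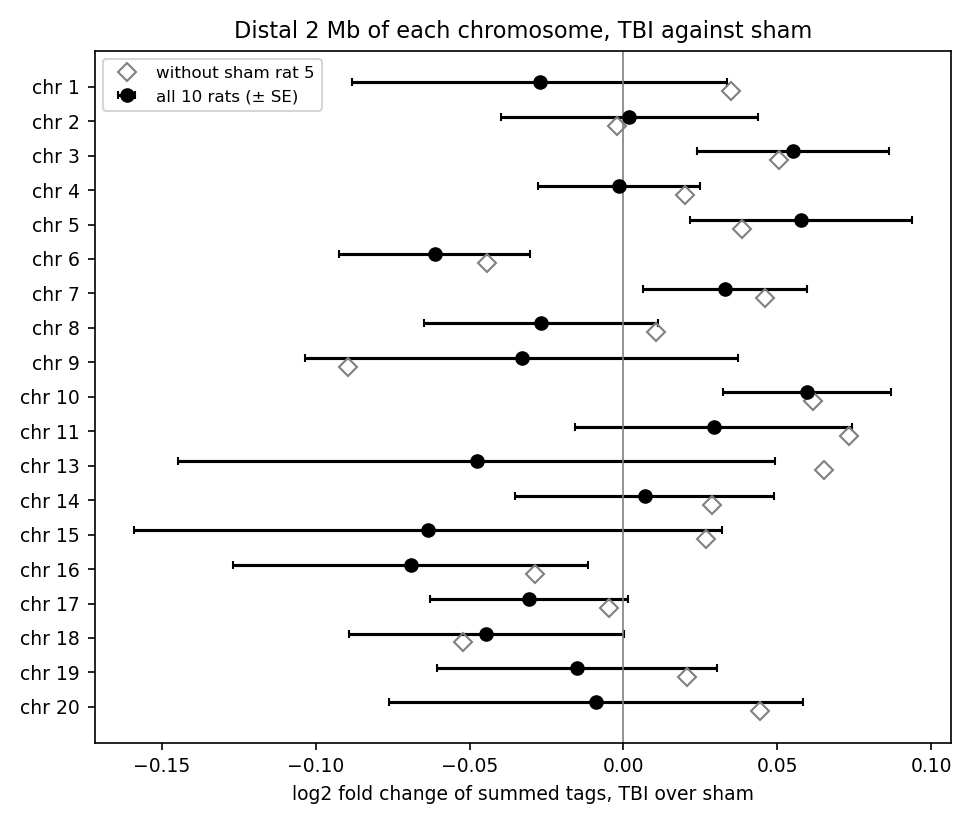
Log2 fold change of summed tags, TBI over sham, in the distal 2 Mb window of each chromosome, from edgeR's quasi-likelihood fit over all windows. Filled points with bars are all 10 rats (± SE) and open diamonds leave out sham rat 5. Values lie between -0.069 and 0.060 with all rats, and diamonds stand to the right of 0 at 13 of the 19 ends.

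Regions were tested singly over the whole matrix. Of the distal regions, 3495 passed the filter on the tag sum (43.6%, compared with 49.8% of the rest), and the share lay between 22.4% at the end of chromosome 16 and 63.0% at that of chromosome 5. At an unadjusted p under 0.01, 14 distal regions differed between TBI and sham rats (0.401%), where the share over all tested regions was 0.266%. Of these, 6 had more tags in TBI rats (background 0.098% of all tested regions) and 8 had fewer (background 0.168%). Scaled by total tags alone, 7 had more and 5 had fewer, and over the whole matrix the share of calls with more tags in TBI rats was 51.8% with that scaling and 36.9% with trimmed means. No distal region reached an adjusted p under 0.05 (0 of 3495 by edgeR's quasi-likelihood test and 0 by the DESeq2 Wald test), and 86 had an unadjusted p under 0.05 (2.46%, compared with 2.45% of all tested regions). The median log2 fold change was -0.009 over the tested distal regions and -0.019 over all tested regions.

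The number of distal calls moved with single libraries. Without sham rat 5, 26 of 3509 distal regions were called (0.741%), where the background was 0.792%, with 15 higher (background 0.397%) and 11 lower (background 0.396%). The fits shared 8 regions, which is 57.1% of the first list and 30.8% of the second. There were 24 calls without sham rat 1 (0.687%, where the share over all tested regions was 0.433%) and 24 without sham rat 4 (0.685%, against 0.727%). There were 9 without sham rat 2 (0.257%, against 0.214%), 7 without TBI rat 2 (0.200%, against 0.196%), 6 without TBI rat 3 (0.172%, against 0.171%) and 6 without TBI rat 4 (0.171%, against 0.178%). The share over all tested regions thus moved with the same libraries. In 21 tested distal regions (0.601%) the values of the groups did not overlap, where the background was 0.502%. Of these 21, 15 were higher and 6 lower in TBI rats, and over all tested regions 981 were higher and 816 lower. The median SD of log2 CPM within groups was 0.306 at the distal ends and 0.305 in the rest, and without sham rat 5 it was 0.274 and 0.268.

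The 14 calls lay at 10 ends. The end of chromosome 5, which had the most tested regions, held 3 among 484 tested, all with more tags in TBI rats. That of chromosome 16 held 2 among 33 tested and that of chromosome 19 held 2 among 242. The ends of chromosomes 3, 4, 6, 7, 10, 11 and 17 held 1 each, among 140 to 461 tested. Over all distal ends it was 14 among 3495. With so few calls per end, these counts do not set one end apart from another. The 5 regions with the smallest p in each direction are described below by their CPM. They were chosen for small p-values, and none had an adjusted p under 0.05.

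Among regions with more tags in TBI rats, chr11:86214159-86214824, 1522 kb from the end, had 1.31, 1.47, 1.37, 1.59 and 0.882 CPM in sham rats 1 to 5 and 2.13, 1.95, 2.32, 2.47 and 2.85 CPM in TBI rats 1 to 5. All TBI rats were above all sham rats, with a log2 fold change of 0.82 ± 0.22 (SE) from 13 to 55 tags per rat. The 2 named regions of chromosome 5 lay close together, 498.3 and 468.0 kb from the end. At chr5:172597304-172598057 the values were 2.05, 1.47, 1.53, 0.878 and 1.97 CPM in sham rats 1 to 5 and 1.89, 3.39, 4.19, 2.35 and 2.17 CPM in TBI rats 1 to 5. TBI rat 1 was within the sham range, and the log2 fold change was 0.85 ± 0.26 (SE). At chr5:172627592-172628326 the values were 1.39, 0.926, 1.06, 0.823 and 0.949 CPM in sham rats 1 to 5 and 1.498, 1.44, 1.82, 2.01 and 2.02 CPM in TBI rats 1 to 5. These groups did not overlap, and the log2 fold change was 0.79 ± 0.25 (SE).

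At chr16:90097614-90098553, 120.9 kb from the end, sham rats had 1.57 ± 0.196 CPM and TBI rats 2.44 ± 0.478 CPM (SD, n = 5 per group). The log2 fold change was 0.65 and there was no overlap. At chr19:57317897-57319282, 1894 kb from the end, sham rats had 1.10 ± 0.484 CPM and TBI rats 1.99 ± 0.418 CPM (SD, n = 5 per group). The log2 fold change was 0.89. The groups did not overlap there, but sham rat 5 at 1.69 CPM was close to TBI rat 4 at 1.72 CPM.

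Among regions with fewer tags in TBI rats, sham rat 5 stood apart in 3. At chr6:146217316-146218105, 1413 kb from the end, sham rats 1 to 5 had 0.409, 1.16, 0.264, 0.604 and 4.00 CPM and TBI rats 1 to 5 had 0.236, 0.0722, 0.454, 0.459 and 0.103 CPM. Sham rat 5 was far above its group. Sham rats 1 and 3 lay within the range of the TBI rats, and sham rats 2 and 4 lay above it. The log2 fold change was -2.20 ± 0.66 (SE) from 1 to 59 tags per rat. At chr19:59123842-59125423, 87.7 kb from the end, sham rat 5 had 5.70 CPM, the other sham rats 0.933 to 1.93 CPM and TBI rats 0.573 to 1.19 CPM. At chr7:141449900-141451311, 1551 kb from the end, sham rat 5 had 4.34 CPM, the other sham rats 0.165 to 1.31 CPM and TBI rats 0.202 to 0.473 CPM. Without sham rat 5 the regions on chromosomes 6 and 7 fell under the filter on the tag sum, and the log2 fold change of that on chromosome 19 was -0.72 in place of -1.40 and no longer called.

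In the other 2 named regions with fewer tags in TBI rats the values did not overlap between groups. At chr16:88629092-88629787, 1589 kb from the end, sham rats 1 to 5 had 2.13, 2.01, 2.48, 2.63 and 1.97 CPM and TBI rats 1 to 5 had 1.73, 1.44, 1.61, 1.32 and 1.19 CPM. The log2 fold change was -0.63 ± 0.21 (SE), and -0.68 without sham rat 5. At chr3:170203020-170203732, 857.4 kb from the end, sham rats 1 to 5 had 0.982, 1.00, 1.11, 0.823 and 1.76 CPM and TBI rats 1 to 5 had 0.552, 0.433, 0.505, 0.516 and 0.777 CPM. Sham rat 5 was the highest, the log2 fold change was -1.01 ± 0.34 (SE) from 6 to 26 tags per rat, and without sham rat 5 it was -0.79 and no longer called.

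**Figure D5:**
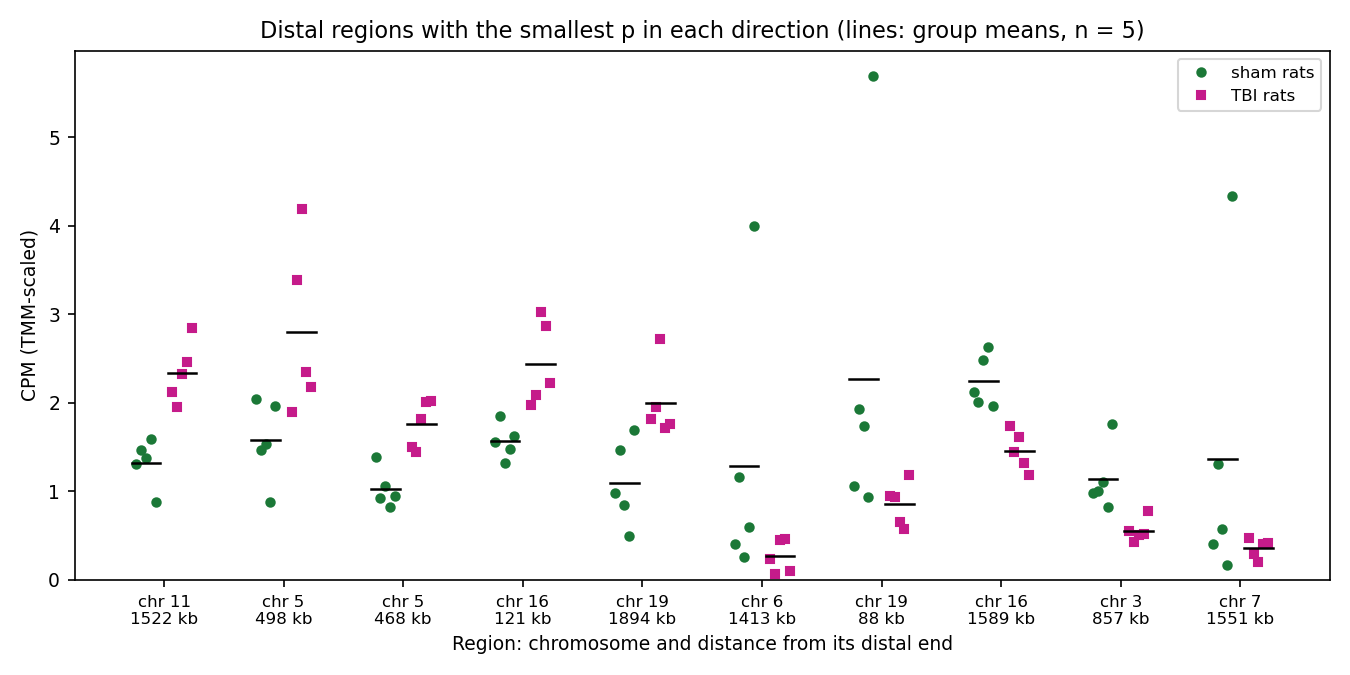
CPM of the 10 named distal regions in each rat, by chromosome and distance from the largest end. Circles are sham and squares TBI rats, and lines are group means (n = 5). Sham rat 5 is the circle at 4.00, 5.70 and 4.34 CPM on chromosomes 6, 19 and 7, above all other rats there.

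The ratio of distal to rest moved with how strongly a library was concentrated in its strongest regions. Both measures were counted from the same tags of each library, so they are not independent, which the permutation test does not allow for. Over the 10 rats, the share of tags in the 1% of tested regions with the most tags correlated with the log2 ratio at Pearson's r of -0.89 (permutation p = 0.00204, adjusted p = 0.00408) and Spearman's rho of -0.867 (permutation p = 0.00214, adjusted p = 0.00428), the adjustment being over 2 relations. Without the 2 rats farthest from the median share, sham rats 5 and 4, r was -0.71, and without sham rat 5 alone it was -0.68. The total number of tags, the other relation, had an r of 0.29 (permutation p = 0.435) and a rho of 0.30 (permutation p = 0.406). The part of this in the distal ratio of the groups was not tested.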

How the data were processed

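DNA of each rat was captured with a methyl-CpG binding protein and sequenced as 36 bp single reads. According to the labels and methods, the authors aligned reads to the RN4 assembly with BWA, ran MACS on every pair of samples, merged the resulting regions with BEDTools and removed duplicate reads. They deposited raw counts (tags per region and sample), not scaled for depth. Only sequence where MACS found a difference between at least 1 pair of samples became a region, so region density depends on these calls. Positions are printed as deposited, and whether they count from 0 or 1 is not stated. All 10 sample columns were used (0 others). Groups came from the treatment labels. The study's methods name fewer control rats for methylation profiling in this model than the labels do, and which library this concerns is not given. Nothing beyond rat identity is known of batches.

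The members, lists and tests were chosen with earlier results of these data known. Ratios of summed tags per kb of region were tested over rats by exact sign-flip permutation (1024 flips) and between groups by exact permutation (252 splits), all two-sided. Correlations used 100000 permutations. Regions with a tag sum at or above the 50th percentile (117 tags, 358249 regions) and 2 Mb windows with at least 1000 tags entered edgeR 4.0.16 under R 4.3.3 (trimmed mean of M values, TMM, trended dispersion, quasi-likelihood F test, Benjamini-Hochberg adjustment over the whole matrix). Calls use an unadjusted p under 0.01, the study's threshold. SEs were derived from the F statistic. CPM of single regions and windows is scaled by TMM. Log2 CPM for the spread between rats used 0.5 as the added value. Named regions were the 5 smallest p-values in each direction, the 5 with the most tags per kb among those of 400 bp or more, and the 5 longest. The 3 highest and 3 lowest ends were also named.

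In simulated counts for 40000 regions with 100 changed by 1 and 100 by 2 log2 units, 50% and 91% were recovered at an adjusted p under 0.05, and the share of regions without a change that had p under 0.01 was 1.04%. The simulation held no library that stood apart as sham rat 5 did. In the data 0.266% of all tested regions had p under 0.01 (edgeR's quasi-likelihood test), fewer than in the simulation. The recovered shares therefore need not hold for the data. Alternatives were DESeq2 1.42.0 size factors and Wald test, total tags alone, loess offsets (span 0.3), edgeR's exact test, other filters, windows of 1 and 5 Mb, and leaving out each rat. Those that combine a setting with sham rat 5 left out, leave out a chromosome or use the next 8 Mb were chosen after seeing the data. Python 3.11.15 with numpy 2.4.6, pandas 2.3.3 and scipy 1.17.1 was used. RN4 sequence and gene annotation were not used here.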

Additional observations from a re-analysis of the deposited data

Results flagged for a closer look

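In 72 sets of 5 values, 9 had a rat far from the other 4 of its group, and chance gives about 3.6 (1 in 20) for independent sets. These sets share the same 10 libraries and include 10 regions chosen for small p. The 3.6 is therefore no test of the 9. Of the 9, 8 concerned sham rat 5. In 43.84% of the distal regions its CPM exceeded that of the other 9 libraries, and for the next sham rat this share was 10.09%. In the rest of the same chromosomes these shares were 40.2% and 10.8%. Its log2 ratio of tags per kb, distal over rest of the chromosome, was -0.08574 at the end of chromosome 11 (the nearest sham rat had -0.2795), -0.2935 at that of chromosome 13 (-0.7824), -0.327 at that of chromosome 14 (-0.4989) and -0.5793 at that of chromosome 16 (-0.8068). Among named regions it had 4.001 CPM at chr6:146217316-146218105 (the nearest sham rat had 1.158), 5.696 CPM at chr19:59123842-59125423 (1.93) and 4.34 CPM at chr7:141449900-141451311 (1.312). At chr19:57317897-57319282, TBI rat 3 had 2.725 CPM and the nearest TBI rat 1.949 CPM.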

How the results depend on the processing

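No paired analysis was possible because each rat number occurs in 1 group. The distal deficit in tags per kb (log2 -0.172) turned to 0.202 with a 5 Mb window, and to 0.211 with that window and sham rat 5 left out. It was -0.0196 and no longer past the threshold (exact permutation p = 0.0527) in regions with at least 10 tags in every rat. With sham rat 5 also left out it was -0.0229 in those regions and past the threshold (exact permutation p = 0.0391). Leaving out 1 rat gave -0.183 to -0.167. The distal to low-coordinate ratio (log2 -0.318) turned to 0.143 with a 5 Mb window and 0.0868 without the strongest 1% of regions, and to 0.1503 and 0.0915 with sham rat 5 also left out. Leaving out 1 rat gave -0.339 to -0.303.

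The TBI minus sham difference (0.00312) was past the threshold nowhere. It was -0.0210 as a mean over chromosomes and -0.00865 to 0.0287 when 1 rat was left out. Counts of ends past adjustment and of distal windows called were 0 under each alternative run. For the ends this says little, since a single end could not have passed adjustment by itself in any run.

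Called distal regions, 0.401% (6 higher, 8 lower), were 0.712% with loess offsets and 0.769% with total tags alone when sham rat 5 was left out (16 and 18 higher), below the shares of all tested regions in those fits, 0.862% and 0.806%. With all rats, 5 were lower under total tags alone, where more regions were called higher (7) than lower. With no filter beyond 1 tag, 37 of 7982 distal regions were lower, and 3166 of all 715411 tested regions. In that fit the calls in either direction were 0.564% of distal regions and 0.535% of all tested regions. With at least 10 tags in every rat, 4 of 2254 distal regions were lower, and 436 of all 247206 tested regions. Leaving out 1 rat gave 0.171% to 0.741%, 3 to 15 higher and 2 to 20 lower, while the share of all tested regions lay between 0.171% and 0.792%. The 10 named regions kept their direction in 189 of 189 alternative values, 45 of them with p of 0.01 or more, which is no test of direction since they were chosen for small p. The cause of these changes was not tested. These 10 regions held between 1 and 84 tags per library.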

Other observations

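The pooled excess of tags per kb at the low-coordinate ends (log2 0.15 ± 0.059 over the rest, SD, n = 10) came with few strong regions. Of the 19 low-coordinate ends, 6 had a log2 ratio above 0, the highest on chromosome 3 (2.23) and chromosome 18 (1.19). The region chr3:143742-145177 alone held 8.40% of all low-coordinate tags in 0.0333% of the length of these regions, and chr3:555391-557427 held another 1.93%. The share of regions among the 1% with the most tags per kb was 1.83% at the low-coordinate ends and 0.936% at the distal ends. Chromosome 12, which the choice of chromosomes left out, held 379.3 regions per Mb with a median length of 692 bp.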
